A study of Mus musculus with 23 samples.

Results

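Liver RNA of mice injected with recombinant FCN2 (ficolin-2) was compared with liver RNA of mice given vehicle in the same batch. The members were all libraries whose titles carry the FCN2 or the vehicle name of batch 2, 8 of the 23 libraries of the series: 4 of FCN2 and 4 of vehicle. The fit used these 8 libraries alone. All came from C57BL/6J mice, a common inbred strain, and the labels give no sex and no age. FCN2 mice received 3 injections of 1 µg per g body weight, 1 day apart, and the vehicle mice share the batch but received no protein. A further 4 libraries of batch 2, from mice given the secreted protein EPDR1 at the same dose and schedule, served to ask where FCN2 differs from another injected protein. The study looked for secreted proteins that act as endocrine factors in cardiometabolic disease, and the comparison asks which liver genes differ after FCN2. Replicate numbers are not tied to separate animals in the labels, so the p-values describe variation among these libraries, some of which may be technical.

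Ficolin-2 is a soluble lectin of blood. Ficolins and the collectins, among them the mannose-binding lectins, bind sugar and acetyl groups on microbes and dying cells and carry serine proteases called MASPs, which cleave complement C4 and C2 and so start the lectin pathway of complement. Most of these proteins are made in the liver: hepatocytes secrete mannose-binding lectins and complement components, and the mouse ficolin gene Fcna is a marker of Kupffer cells, the macrophages of the liver sinusoids.

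The FCN2 libraries held 7060707, 2735871, 3706588 and 4989046 gene counts (replicates 1 to 4) and the vehicle libraries 4038677, 21892416, 2517701 and 2964066. Vehicle replicate 2 was thus by far the deepest. No replicate pair of either group agreed within sampling noise. Levels are given in CPM (counts scaled to a common library size after TMM), and fold changes as log2 FCN2 minus vehicle ± SE. A gene is called where its edgeR adjusted p was under 0.05. Liver identity was as labelled: the summed level of 15 hepatocyte markers was 126640 to 137730 CPM after FCN2 and 107720 to 121630 CPM in vehicle. The sum was higher in every FCN2 library than in every vehicle library. All 15 markers were tested and none was called (13.9% of all genes tested were), which does not bear on tissue identity. Because these are bulk samples, fewer cells of a type and less RNA per cell cannot be told apart.

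Of 10155 genes tested, 1409 were called (13.9%), 569 higher (5.6%) and 840 lower (8.27%) after FCN2. The direction of a gene's difference followed its base composition. Of the 569 genes called higher, 531 had a GC content below the median of the genes tested (49.2% of transcript bases), and of the 840 called lower, 821 lay above it. Across 10149 genes the fold change and GC content had a Spearman rho of -0.72, given as a description because genes are not independent replicates. The genes were split by GC content into 10 groups of nearly equal size. In the group of lowest GC content (31.2% to 41.9%) the median fold change was 0.41, with 244 called higher and 4 lower. In the group of highest GC content (57.0% to 73.7%) it was -0.63, with 2 called higher and 398 lower. In the middle 2 groups (47.5% to 51.0% GC) 72 of 2029 genes were called (3.55%), 47 higher and 25 lower. The GC content of the promoter, in 7986 genes, showed little of this order (rho -0.075), and neither did exon length (0.11).

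**Figure D1:**
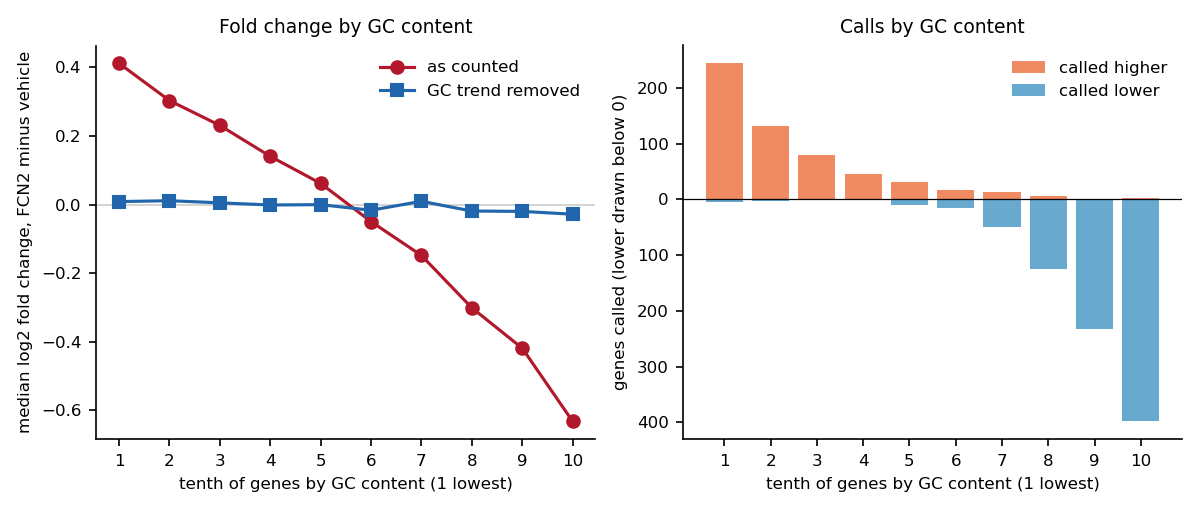
Left, the median log2 fold change (FCN2 minus vehicle) of each of 10 groups of genes ordered by transcript GC content, as counted (circles) and with each library's GC trend removed (squares). Right, the number of genes called higher (above 0) or lower (below 0) in each group; the median runs from 0.41 in the group of lowest GC content to -0.63 in the highest, and called genes change from nearly all higher to nearly all lower.

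The same order was present library by library. The GC gap, the median log2 CPM of the GC-richest of 3 equal groups of genes minus that of the GC-poorest, was -1.13, -1.42, -1.15 and -1.56 in FCN2 replicates 1 to 4 and -0.63, -0.58, -0.73 and -0.67 in vehicle. Every FCN2 library lay below every vehicle library. The difference had a 2-sided exact permutation p of 0.0286, the smallest that 4 against 4 allow (0.0644 adjusted over 9 library measures). GC content of the library and injection of FCN2 therefore cannot be told apart for genes that follow this order. The share of counts from Alb, the albumin gene, moved with the groups as well (7.48% ± 0.605 after FCN2 against 6.52% ± 0.378 in vehicle, SD, n = 4 each; exact permutation p = 0.0286, adjusted 0.0644), as did structural RNA genes (0.225% ± 0.0423 against 0.536% ± 0.0843) and the 10 most abundant genes together (23.3% ± 1.23 against 20.2% ± 1.32), both with the same exact permutation p. The part of these shares in the gene calls was not tested.

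**Figure D2:**
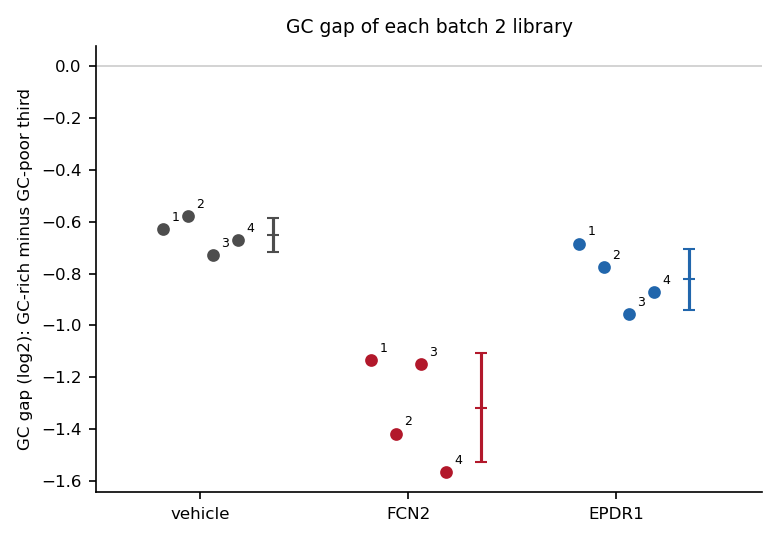
GC gap (log2, vertical axis) of each library of vehicle, FCN2 and EPDR1 in batch 2; numbers are replicates, and the bars show the mean ± SD of the 4 libraries. The FCN2 libraries run from -1.56 to -1.13, below the vehicle libraries (-0.73 to -0.58) and the EPDR1 libraries (-0.96 to -0.68).

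Each library's GC trend was therefore also removed (a smooth curve of log2 CPM against GC content, entered as an offset) and the test repeated. The rho fell to -0.04, and 21 of 10155 genes were called (0.207%), 12 higher (0.118%) and 9 lower (0.0886%). Of these, 18 were also called in the same direction without that step (0.177%), 9 higher and 9 lower. Against the GC order moved 14 of the 18: 7 that rose are richer in GC than the median gene and 7 that fell are poorer. Removing the trend enlarges the fold change of genes that move against it and shrinks that of genes that follow it. The selection therefore favours such genes, and nothing is read from the 14. How many of the 18 held depended on which library was left out. With the GC trend removed, 46 genes were called without FCN2 replicate 2, 34 without FCN2 replicate 3 and 33 without vehicle replicate 4, each time with 16 of the 18 among them. In the same fit 0 genes were called without FCN2 replicate 1, FCN2 replicate 4 or vehicle replicate 1, and 1 without vehicle replicate 2 or 3. As counted, 213 genes were called without vehicle replicate 2 and 370 without FCN2 replicate 4. Of 77 called genes named here, 30 kept the call as counted in each of the 8 fits that leave out 1 library: Dmbt1, Gas2, Gng11, Serpina6, Atp1b1, Rps24-ps3, Mup1, Mup10, Mup18, Nucb2, Dad1, Tspo, Scd1, Tiparp, Abcd2, Wsb1, Derl3, Sdf2l1, Creb3l3, Cebpa, Gpt, Cyp8b1, Nr0b2, Mvd, Mvk, Srm, Zmiz2, Bahcc1, Bri3 and Acot8. The other 47 lost it without at least 1 library, 46 of them without vehicle replicate 2, the deepest. In a fit over all 23 libraries 97 genes were called as counted, 19 higher and 78 lower, and 0 with the GC trend removed. That count turned on 1 library of another injected protein, LBP replicate 2, in which Alb took 0.211% of counts and structural RNA genes 12.4%. Without it 2314 genes were called as counted, 1079 higher and 1235 lower, and 83 with the GC trend removed, 11 of the 18 among them.

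The fallen genes of the 18 included 4 major urinary protein genes, and the sequences in front of 2 of them are given first. Major urinary proteins are small lipocalins that the mouse liver secretes for scent marking, encoded by a cluster of closely similar genes on chromosome 4. The RefSeq promoter windows (250 bases before to 50 after the start of the gene, GRCm38.p6, minus strand) of Mup10 (chr4:60582106-60582405) and Mup18 (chr4:61674045-61674344) are shown to make that similarity visible: they are 88.1% identical over 310 aligned columns. Capitals mark TATATAA, searched on both strands, where the Mup10 run is 2 overlapping matches. It is found in 3.84% of 27025 mouse promoters of this length, in 1.89% of the promoters of genes tested, in 3.26% of those of genes called higher and in 2.35% of those of genes called lower.

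Mup10: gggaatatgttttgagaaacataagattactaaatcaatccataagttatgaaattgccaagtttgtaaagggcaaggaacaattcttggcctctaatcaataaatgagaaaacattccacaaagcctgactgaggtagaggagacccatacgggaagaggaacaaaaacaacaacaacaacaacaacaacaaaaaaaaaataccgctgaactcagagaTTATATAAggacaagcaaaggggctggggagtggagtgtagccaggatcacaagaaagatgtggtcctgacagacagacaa

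Mup18: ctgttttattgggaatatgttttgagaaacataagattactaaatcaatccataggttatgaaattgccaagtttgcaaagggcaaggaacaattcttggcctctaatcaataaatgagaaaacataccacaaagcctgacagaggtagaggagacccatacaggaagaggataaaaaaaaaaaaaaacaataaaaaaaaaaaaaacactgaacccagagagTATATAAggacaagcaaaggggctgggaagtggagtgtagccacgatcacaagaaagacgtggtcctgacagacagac

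Mup10 (ENSMUSG00000078680, chromosome 4, 60578260 to 60582199) was read at 1.32, 2.23, 0.565 and 1.303 CPM in FCN2 replicates 1 to 4 and at 6.80, 4.18, 5.09 and 3.67 CPM in vehicle. All FCN2 libraries lay below all vehicle libraries. It fell by 1.87 ± 0.37 (edgeR adjusted p = 0.0115), and by 2.23 ± 0.35 with the GC trend removed (0.0286). Mup18 was at 9.57, 9.30, 14.4 and 12.8 CPM against 30.2, 42.7, 44.6 and 15.3 CPM, and fell by 1.55 ± 0.29 (edgeR adjusted p = 0.0126; 0.0363 with the GC trend removed). Mup1 was at 13.99, 30.9, 15.3 and 28.01 CPM against 64.0, 64.7, 69.7 and 38.4 CPM, and fell by 1.46 ± 0.27 (0.0121; 0.0286). Vehicle replicate 4 was the lowest vehicle library for these genes and stood nearest to the FCN2 libraries. Mup8 was at 4.12, 5.21, 5.65 and 6.73 CPM against 10.6, 9.73, 9.79 and 9.01 CPM and fell by 0.86 ± 0.21 (0.0201; 0.0312), a call lost without FCN2 replicate 1 or vehicle replicate 1 or 2 (0.0508 to 0.0706). Mup19 was called lower as counted (-1.04 ± 0.24, edgeR adjusted p = 0.0186) and not with the GC trend removed (-1.40, 0.0591).

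The whole family did not move as one. Of 21 Mup genes 20 were tested, and 5 were called lower and 0 higher, against 8.27% lower and 5.6% higher of all genes; 4 were called lower with the GC trend removed. Their median fold change was -0.56, against 0.0050 for all genes, and -0.90 with the GC trend removed; 17 of the 20 had a negative value, 18 with the GC trend removed. Their GC content spans 39.6% to 42.5%, the range in which other genes tended to be higher after FCN2. Mup3, which holds most of the family's counts, was at 14950 to 23991 CPM after FCN2 and at 15829 to 16934 CPM in vehicle, and its groups overlapped (0.23 ± 0.16, edgeR adjusted p = 0.341). Mup17 was at 210, 781, 403 and 572 CPM against 1782, 3399, 2572 and 695 CPM (-2.11 ± 0.59, edgeR adjusted p = 0.0573). The summed level of the family ran from 21514 to 32973 CPM after FCN2 and from 25788 to 34191 CPM in vehicle, so the groups overlapped in total Mup RNA. Mup genes are so alike that reads, which the counting tool by default keeps only where they map to 1 place, can be split among them or lost, and the fall of single members is uncertain for that reason. Mup-ps18, a pseudogene of the cluster, also passed both ways (-0.72 ± 0.22, edgeR adjusted p = 0.0427) although its groups overlapped.

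**Figure D3:**
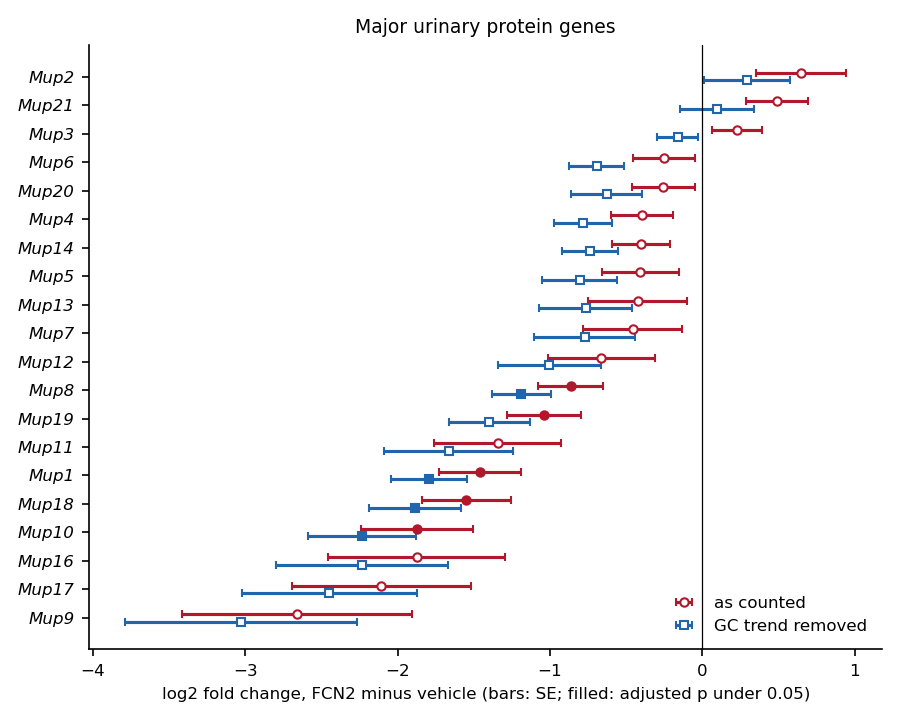
Log2 fold change (FCN2 minus vehicle, horizontal axis; bars, SE) of the 20 Mup genes tested, as counted (circles) and with the GC trend removed (squares); filled symbols have an adjusted p under 0.05. The values run from Mup9 and Mup17, which were not called, to Mup2, Mup21 and Mup3 above 0 as counted, and removal of the GC trend shifts each member to the left.

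Other genes fell against or beyond the GC order. Nucb2, which encodes nucleobindin-2, the precursor of the appetite peptide nesfatin-1, was at 5.89, 3.72, 6.78 and 5.21 CPM after FCN2 and at 13.4, 9.68, 18.4 and 16.01 CPM in vehicle. The groups did not overlap, and it fell by 1.32 ± 0.25 (edgeR adjusted p = 0.00944; 0.0286 with the GC trend removed). Dad1, a subunit of the complex that attaches N-glycans to proteins in the endoplasmic reticulum, was at 22.7, 21.6, 25.7 and 19.1 CPM against 37.5, 38.0, 38.4 and 39.4 CPM. The vehicle libraries were nearly equal and all above the FCN2 libraries (-0.78 ± 0.14, edgeR adjusted p = 0.00875; 0.0286). Tspo, a cholesterol- and porphyrin-binding protein of the outer mitochondrial membrane, was at 10.3, 6.33, 9.32 and 6.08 CPM against 20.4, 23.9, 18.01 and 26.4 CPM. It fell by 1.45 ± 0.20 (edgeR adjusted p = 0.00536), but its transcripts are rich in GC (58.3%) and with the GC trend removed the fall was 0.89 ± 0.17 (0.0489). Gm23935 is a short gene annotated as a microRNA on chromosome 16. Its GC content of 73.7% is the highest of the genes tested, where the trend curve ends and its removal is least certain. It was at 6.63, 1.49, 18.4 and 2.39 CPM against 99.0, 99.7, 82.6 and 81.1 CPM (-3.66 ± 0.57, edgeR adjusted p = 0.0138, and -2.47 ± 0.34 with the GC trend removed, 0.0316). The call as counted was lost without vehicle replicate 2 (edgeR adjusted p = 0.0566).

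The largest rise of the 18 was that of Dmbt1, which encodes a secreted scavenger receptor of mucosal surfaces and ducts (ENSMUSG00000047517, chromosome 7, 131032053 to 131121630). It was at 10.3, 6.33, 7.63 and 11.7 CPM after FCN2 and at 1.64, 0.904, 2.35 and 0 CPM in vehicle. Every FCN2 library was above every vehicle library, and vehicle replicate 4 had no read of it. The fold change was 3.06 ± 0.41 (edgeR adjusted p = 0.00536) and 3.20 ± 0.41 with the GC trend removed (0.0244). Dmbt1 is known from bile duct cells. Of 8 cholangiocyte markers 3 were tested and none was called, where 13.9% of all genes were, so with so few genes the count tells little. The fold change was positive in 2 of the 3, and in all 3 with the GC trend removed. The summed level of the 8 markers was 55.1 to 99.7 CPM after FCN2 and 50.6 to 80.2 CPM in vehicle. In the 4 EPDR1 libraries, scaled with the FCN2 libraries, Dmbt1 was at 12.3, 2.06, 2.21 and 11.98 CPM, so that 2 lay with the FCN2 libraries and 2 near vehicle, and FCN2 minus EPDR1 was 0.33 ± 0.54 (edgeR adjusted p = 0.777).

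Serpina6 encodes corticosteroid-binding globulin, the plasma carrier of glucocorticoids. It was at 316, 204, 184 and 205 CPM after FCN2 and at 96.1, 117, 126 and 134 CPM in vehicle. FCN2 replicate 1 stood above the rest of its group, and the groups did not overlap (0.95 ± 0.17, edgeR adjusted p = 0.00875; 1.01 ± 0.17 with the GC trend removed, 0.0327). Gas2, a protein that links actin and microtubules, was at 195, 139, 129 and 141 CPM against 65.9, 62.0, 79.1 and 81.7 CPM. It rose by 1.08 ± 0.15 (edgeR adjusted p = 0.00536; 0.0364), with no overlap. Atp1b1, the beta subunit of the sodium-potassium pump, was at 80.2, 57.7, 45.2 and 57.5 CPM against 30.7, 34.4, 26.6 and 39.7 CPM. It rose by 0.88 ± 0.18 (edgeR adjusted p = 0.0124; 0.0363), with FCN2 replicate 3 nearest to vehicle.

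Atpif1, the inhibitor of the mitochondrial ATP synthase when it runs in reverse, was at 27.4, 20.8, 20.1 and 22.1 CPM against 13.4, 12.4, 14.5 and 14.01 CPM. The groups were apart (0.77 ± 0.16, edgeR adjusted p = 0.0127; 0.0286 with the GC trend removed). Gng11, a gamma subunit of heterotrimeric G proteins, was at 16.05, 10.4, 13.6 and 14.98 CPM against 5.39, 7.45, 3.91 and 8.67 CPM (1.08 ± 0.23, edgeR adjusted p = 0.0131; 0.0363). Rps24-ps3, a processed pseudogene of a ribosomal protein gene, was at 26.8 to 31.4 CPM against 11.5 to 16.3 CPM (1.15 ± 0.16, edgeR adjusted p = 0.00536; 0.0286). Reads of the parent gene may be counted there, so its rise is uncertain. In the remaining genes of the set that rose the groups overlapped in 1 library: Gabbr2, a subunit of the GABA-B receptor (0.63 ± 0.19, edgeR adjusted p = 0.0431), and Irf2bp2, a transcriptional corepressor (0.52 ± 0.15, edgeR adjusted p = 0.0369). In all, 15 of the 18 had no overlap between the groups, as had 20.7% of all genes (FCN2 above vehicle in 9.49% and below it in 11.2%). The 18 were called from the same 8 libraries, so nothing is read from that difference.

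**Figure D4:**
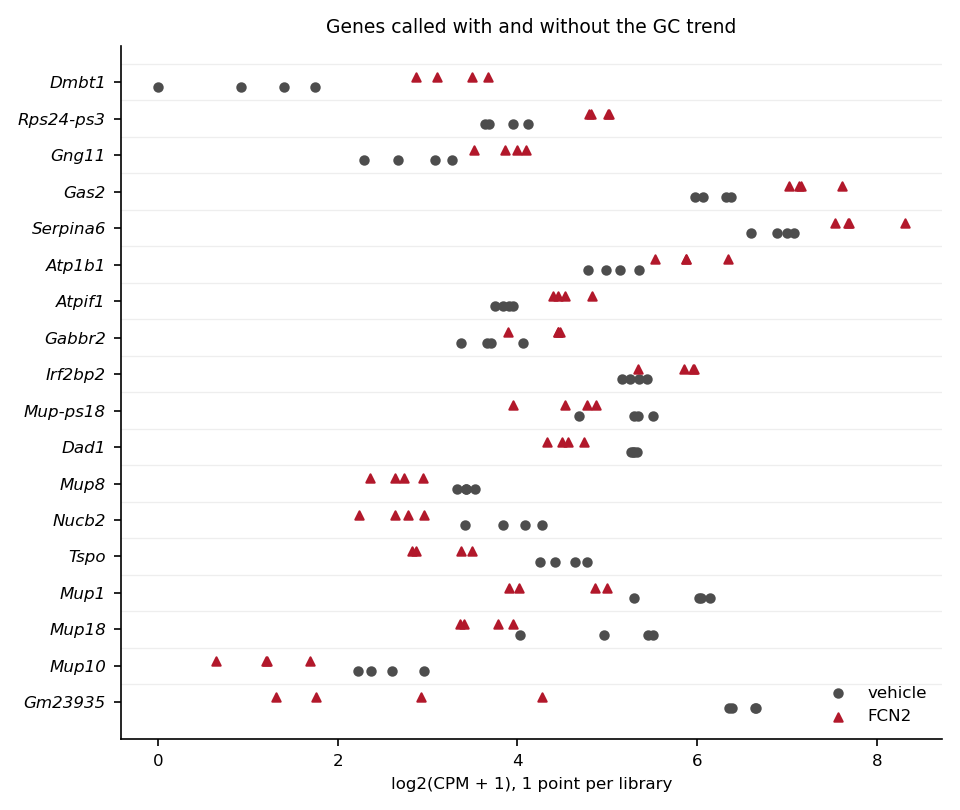
Level of the 18 genes called with and without the GC trend, as log2(CPM + 1) on the horizontal axis, with 1 point per library (circles, vehicle; triangles, FCN2), ordered by fold change. The FCN2 libraries lie to the right in the upper 9 genes and to the left in the lower 9, and overlap with vehicle is seen in Gabbr2, Irf2bp2 and Mup-ps18.

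The 3 genes called only with the GC trend removed were Jund, Cxxc5 and Sap30l, named after their values were seen. Jund, an AP-1 transcription factor, was at 21.6, 18.98, 20.9 and 20.4 CPM after FCN2 and 12.7, 21.99, 18.4 and 15.7 CPM in vehicle. As counted the groups overlapped (0.23 ± 0.18, edgeR adjusted p = 0.385), while at its GC content of 67.1% other genes were mostly lower, and with the trend removed the fold change was 1.32 ± 0.21 (0.0286). Cxxc5 and Sap30l, both nuclear regulators, likewise had as-counted fold changes near 0 (0.18 and 0.07, edgeR adjusted p = 0.398 and 0.796), and 0.89 and 1.102 with the trend removed (0.0327 and 0.0438).

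The lectin pathway, to which the injected protein belongs, had 11 of 12 genes tested, of which 3 were called lower and none higher, against 8.27% lower and 5.6% higher of all genes. The median fold change was -0.24, and -0.02 with the GC trend removed, when 0 of the 11 were called. Among the recognition molecules, Fcna (ENSMUSG00000026938, chromosome 2, 25624666 to 25628030) was at 16.3, 14.9, 8.47 and 14.1 CPM after FCN2 and at 28.8, 19.2, 22.3 and 29.02 CPM in vehicle. Every FCN2 library was below every vehicle library. It fell by 0.85 ± 0.21 (edgeR adjusted p = 0.0204), and the value was -0.50 ± 0.21 with the GC trend removed (0.325). The call was lost without FCN2 replicate 4 or vehicle replicate 1 (0.058 and 0.0577). Of 13 Kupffer cell markers tested Fcna was the 1 called; 12 of the 13, Fcna included, had a negative fold change (median -0.44, and -0.31 with the GC trend removed), and their summed level was 168 to 415 CPM after FCN2 and 247 to 601 CPM in vehicle. No marker of that list was at 0 in all 8 libraries, and the part of these cells in the Fcna difference was not tested.

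Fcnb, the second mouse ficolin gene, had 0 counts in all 8 libraries, which allows up to 3 counts over the 49905072 counts of the comparison, or 0.0601 CPM. Mbl2 was at 589, 463, 443 and 390 CPM against 339, 365, 339 and 389 CPM (0.40 ± 0.14, edgeR adjusted p = 0.074), and Mbl1 at 304, 297, 293 and 290 CPM against 371, 333, 353 and 352 CPM (-0.25 ± 0.12, 0.145). In both the groups were narrowly apart without a call. The collectin genes Colec10 (0.47 ± 0.15, edgeR adjusted p = 0.0544) and Colec11 (-0.05 ± 0.16, 0.863) were not called. Among the proteases Masp2, which cleaves C4 and C2, was at 63.0, 38.0, 72.6 and 41.3 CPM against 87.2, 77.6, 80.6 and 78.1 CPM and fell by 0.58 ± 0.18 (edgeR adjusted p = 0.0473; 0.248 with the GC trend removed), whereas Masp1 overlapped fully (0.02 ± 0.14, edgeR adjusted p = 0.947). Its substrate C4b was at 419, 335, 533 and 295 CPM against 770, 560, 719 and 500 CPM (-0.69 ± 0.19, edgeR adjusted p = 0.0319; 0.383), with FCN2 replicate 3 above vehicle replicate 4. The calls of Masp2 and C4b were each lost in 6 of the 8 fits that leave out 1 library (adjusted p up to 0.141 and 0.101). Of 22 coagulation genes 2 were called higher, Pros1 and F9, and 1 lower, F12, a share near the 13.9% of all genes. None was called with the GC trend removed. The F9 call was lost in each of the 8 fits that leave out 1 library (edgeR adjusted p up to 0.153). That of Pros1 was lost in 7 (up to 0.128) and that of F12 in 1 (0.0516).

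The acute phase and inflammatory lists held no call: 0 of 28 acute phase genes and 0 of 16 genes of NF-kB and cytokine feedback, where 13.9% of all genes were called. The median of the acute phase list was -0.16, and -0.18 with the GC trend removed, and 13 of its 28 values were positive as counted. Its smallest edgeR adjusted p was 0.0507, just over the threshold. Saa1, a strongly induced acute phase gene with near-identical relatives, was at 1930, 320, 1147 and 721 CPM after FCN2 and at 437, 518, 3964 and 620 CPM in vehicle, and vehicle replicate 3 was the highest of the 8 (edgeR adjusted p = 0.788). Lcn2, the lipocalin that withholds iron from bacteria, had the same vehicle replicate far above the others, at 138 CPM against 13.6 to 22.3 CPM (edgeR adjusted p = 0.601). For both genes the sign of the fold change turns without that library.

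The endoplasmic reticulum list is introduced with the promoter of Derl3, because it carries a known stress element. Derl3 encodes derlin-3, a membrane protein of the route by which misfolded proteins leave the endoplasmic reticulum for degradation. Its RefSeq window (GRCm38.p6, chr10:75893148-75893447, plus strand) holds the endoplasmic reticulum stress element (ERSE, a CCAAT box and a CCACG box at a fixed spacing) on the reverse strand, in capitals. Both strands were searched, with no other motif in that stretch considered. The element is in 0.137% of 27025 promoters, in 0.188% of the promoters of genes tested and in 9 of the 28 promoters of tested genes of the list (32.1%); it is in 0.147% of the promoters of genes called lower.

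Derl3: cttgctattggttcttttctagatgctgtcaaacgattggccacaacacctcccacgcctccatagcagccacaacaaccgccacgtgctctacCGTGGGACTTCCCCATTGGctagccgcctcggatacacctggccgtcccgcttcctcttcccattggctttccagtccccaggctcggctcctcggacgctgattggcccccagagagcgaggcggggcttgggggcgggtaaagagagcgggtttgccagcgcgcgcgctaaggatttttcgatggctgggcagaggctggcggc

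Derl3 had 6, 2, 5 and 3 counts after FCN2 and 31, 333, 7 and 13 counts in vehicle, or 0.883, 0.744, 1.41 and 0.651 CPM against 7.27, 14.3, 2.74 and 4.34 CPM. The groups did not overlap, although the counts are small. It fell by 3.16 ± 0.53 (edgeR adjusted p = 0.00875), and the value was -2.58 ± 0.52 with the GC trend removed (0.0722). Of 34 genes of the list tested, 5 were called lower and 0 higher, against 8.27% and 5.6% of all genes; the median was -0.20 both as counted and with the GC trend removed (-0.195 and -0.205), when 0 were called. The other genes called were Creb3l3, a hepatocyte transcription factor released from the endoplasmic reticulum membrane (-0.76 ± 0.16, edgeR adjusted p = 0.0131), Sdf2l1, a partner of the chaperone BiP (-1.31 ± 0.29, 0.0205), Edem2, a mannosidase of the degradation route (-0.51 ± 0.15, 0.0388), and Cdk2ap2 (-1.03 ± 0.31, 0.0452). Sdf2l1 was at 27.97, 24.9, 28.2 and 13.2 CPM against 41.3, 90.3, 47.7 and 49.7 CPM. Vehicle replicate 2 was the highest of the 8 libraries for Derl3, Sdf2l1, Cdk2ap2 and Edem2. Without it the values were -2.42 for Derl3 (edgeR adjusted p = 0.0365), -0.97 for Sdf2l1 (0.0438), -0.76 for Creb3l3 (0.0477), -0.62 for Cdk2ap2 (0.152) and -0.42 for Edem2 (0.145). The element was also in the promoters of Hspa5, the BiP gene, and of 7 other genes of the list, none of which was called. Their values were -1.62 for Syvn1 (edgeR adjusted p = 0.117), -1.21 for Creld2 (0.151), both named after their values were seen, and -0.39 to 0.30 for the other 5. Without vehicle replicate 2, which was at 143.9 CPM for Syvn1 and 198 CPM for Creld2, these were -0.81 (Syvn1, 0.119) and -0.60 (Creld2, 0.239). Hspa5 had a fold change of -0.07 ± 0.27 (edgeR adjusted p = 0.879), and vehicle replicate 2 was at 2918 CPM against 1224 to 1356 CPM in the other vehicle libraries. Without that library the Hspa5 value was 0.32 (edgeR adjusted p = 0.299).

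In lipid synthesis, 2 of 25 genes tested were called higher and 3 lower, against 5.6% higher and 8.27% lower of all genes. Scd1, the desaturase that makes oleate from stearate, was at 12796, 5579, 8406 and 7998 CPM after FCN2 and at 2276, 2365, 3941 and 3734 CPM in vehicle. Every FCN2 library exceeded every vehicle library, and Scd1 rose by 1.498 ± 0.26 (edgeR adjusted p = 0.00875). Its GC content is near the median (49.1%), the fold change with the GC trend removed was 1.48 ± 0.26, and the adjusted p was 0.0566. Elovl5, an elongase of polyunsaturated fatty acids, was at 841, 470, 608 and 816 CPM against 231, 308, 302 and 459 CPM and rose by 1.08 ± 0.22 (edgeR adjusted p = 0.0137; 0.93, 0.128). The genes called lower were Dgat1 (-0.89 ± 0.20, edgeR adjusted p = 0.0152), the lipogenic factor Srebf1 (-0.75 ± 0.20, 0.0286) and fatty acid synthase Fasn (-0.51 ± 0.16, 0.049). With the GC trend removed their values were -0.55, -0.11 and 0.07, none called. Among genes of cholesterol synthesis and uptake, Sc5d was called higher (0.499 ± 0.16, edgeR adjusted p = 0.0478), and Mvd and Mvk, both of the mevalonate route, were called lower (-1.299 ± 0.27 and -1.16 ± 0.26, 0.0131 and 0.0156). Mvd and Mvk are rich in GC (59.2% and 58.5%), and none of the 3 was called with the GC trend removed.

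In the aryl hydrocarbon receptor list 7 of 11 genes were tested. Tiparp, a target gene of the receptor that feeds back on it, was at 21.2, 18.6, 26.6 and 25.8 CPM after FCN2 and at 8.68, 10.5, 11.4 and 6.67 CPM in vehicle. The groups lay well apart (1.29 ± 0.19, edgeR adjusted p = 0.00536; 0.92 ± 0.18 with the GC trend removed, 0.0589). The receptor gene Ahr rose (0.53 ± 0.14, edgeR adjusted p = 0.0249) and was not called with the GC trend removed. Immediate early genes are the first transcription factors induced by a stimulus. As counted they had the median farthest above 0 among lists with at least 5 genes tested, 0.47 over 14 genes, 10 of them above 0. With the GC trend removed the median was 0.83, and 13 of 14 were above 0. The list's median GC content is 54.9%, and removing the trend raises the values of GC-rich genes, so nothing is read from that move. As counted, Klf6, Klf2 and Fos were called higher and Ier2 lower, against 5.6% higher and 8.27% lower of all genes. The calls of Fos and Ier2 were each lost in 7 of the 8 fits that leave out 1 library (edgeR adjusted p up to 0.142 and 0.106). That of Klf2 was lost in 3 and that of Klf6 in 1. Klf2 was at 7.95, 10.05, 7.06 and 12.8 CPM against 3.05, 3.87, 5.87 and 7.005 CPM (1.04 ± 0.28, edgeR adjusted p = 0.0292; 1.86 ± 0.36 with the GC trend removed, 0.0589). FCN2 replicate 3 lay just above vehicle replicate 4. Jund was the 1 member called with the GC trend removed.

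In bile acid synthesis and transport 3 of 18 genes were called lower and 1 higher, against 8.27% lower and 5.6% higher of all genes. Cyp7a1, whose enzyme sets the pace of bile acid synthesis, was at 127, 120, 46.0 and 159 CPM against 60.3, 36.0, 56.4 and 44.0 CPM; FCN2 replicate 3 lay among the vehicle libraries (1.22 ± 0.35, edgeR adjusted p = 0.0512). Nr0b2, the corepressor SHP that holds down Cyp7a1, fell by 1.07 ± 0.21 (edgeR adjusted p = 0.0118), Cyp8b1, which makes cholic acid, by 0.62 ± 0.13 (0.0139), and Cyp27a1 by 0.44 ± 0.14 (0.0444); the uptake carrier Slco1a4 rose by 1.03 ± 0.30 (0.0484). None of the 18 was called with the GC trend removed. Among glucose and fasting genes 4 of 22 were called lower and 1, the coactivator Ppargc1a, higher, beside 8.27% lower and 5.6% higher of all genes. Gpt, alanine aminotransferase, was at 87.9, 61.8, 88.1 and 74.9 CPM against 145, 123, 133 and 131 CPM. It fell by 0.76 ± 0.14 (edgeR adjusted p = 0.00875) at a GC content of 58.0%, and was at -0.21 with the GC trend removed (0.458). In that list the median turned from -0.28 to 0.15 when the GC trend was removed.

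The hepatocyte transcription factors had 8 of 25 genes called lower and none higher, against 8.27% and 5.6% of all genes. Cebpa, which encodes a factor of hepatocyte differentiation, was at 164, 156, 177 and 146 CPM after FCN2 and at 249.7, 252, 231 and 259.8 CPM in vehicle. The groups were apart, and it fell by 0.63 ± 0.12 (edgeR adjusted p = 0.0102) but was at 0.12 with the GC trend removed (0.688). It is rich in GC (61.2%), and the median GC content of the list is 54.3%. The list median was -0.20 as counted and -0.10 with the GC trend removed. Zinc finger genes named Zfp show the other end of the order: 36 of 231 were called higher and 6 lower, beside 5.6% and 8.27% of all genes, their median GC content is 43.9%, and the median of 0.31 became 0.09, with 0 called. Zfp genes share similar stretches, so single members are uncertain. The 7 genes of the mitochondrial genome that could be tested, poor in GC (median 37.1%), had a median of 0.46 as counted and -0.04 with the GC trend removed; none was called either way.

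**Figure D5:**
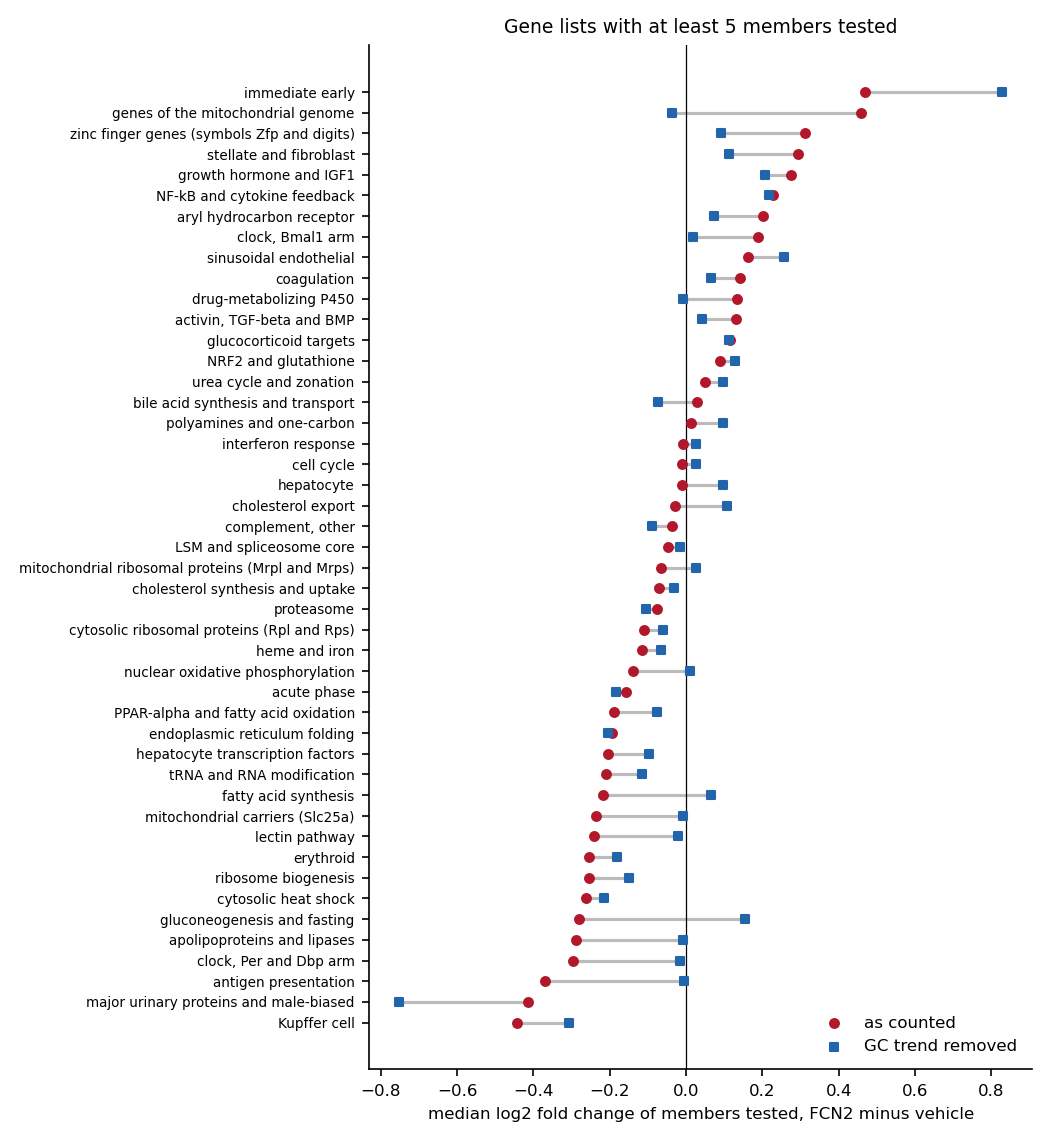
Median log2 fold change (FCN2 minus vehicle) of the tested members of each gene list with at least 5 of them, as counted (circles) and with the GC trend removed (squares). Most lists move towards 0 when the trend is removed, whereas immediate early genes move up to 0.83 and the list of major urinary protein and male-biased genes down to -0.75.

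Markers of sinusoidal endothelial cells, which line the liver's capillaries, had 5 of 16 genes called higher and 1 lower, against 5.6% higher and 8.27% lower of all genes. Lyve1, a hyaluronan receptor, was at 24.2, 11.2, 16.4 and 8.90 CPM after FCN2 and at 7.03, 5.72, 7.05 and 8.34 CPM in vehicle (1.195 ± 0.29, edgeR adjusted p = 0.0196). FCN2 replicate 4 was only just above vehicle replicate 4, and the call was lost without FCN2 replicate 1 or vehicle replicate 2 (0.0526 and 0.0838). Kdr, the main VEGF receptor (0.57 ± 0.14, edgeR adjusted p = 0.0211), the Fc receptor gene Fcgr2b (0.60 ± 0.16, 0.026), the mannose receptor gene Mrc1 (0.61 ± 0.17, 0.0278) and Bmp2 (0.58 ± 0.18, 0.0482) rose too, and Stab1 fell (-0.79 ± 0.24, 0.0391). The calls of Bmp2 and Stab1 were lost in 7 and 6 of the 8 fits that leave out 1 library. Those of Fcgr2b and Mrc1 were each lost in 4 and that of Kdr in 3. The summed level of the markers was 408 to 462 CPM after FCN2 and 310 to 406 CPM in vehicle, without overlap. The list median was 0.16, and 0.26 with the GC trend removed, when none was called. Of 54 lists, 37 had a call as counted and 2 had one with the GC trend removed: the list of major urinary proteins and male-biased genes, and immediate early genes.

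By size alone, the rule for named genes also gave members whose levels are not described above. Some of them, such as Srm, Mrps34 and Zfp97, also belong to gene lists used here. Among the highest, Tcf24, a helix-loop-helix factor gene, was at 31.8, 10.4, 6.21 and 6.51 CPM against 1.17, 0.215, 0.391 and 3.34 CPM, with FCN2 replicate 1 far above its group (4.18 ± 1.00, edgeR adjusted p = 0.0367). Abcd2, a peroxisomal carrier of very long-chain fatty acids, was at 28.3, 23.8, 7.63 and 19.5 CPM against 4.46, 5.55, 4.31 and 5.34 CPM (1.98 ± 0.33, edgeR adjusted p = 0.00875; 1.64 and 0.075 with the GC trend removed). The groups of these genes do not overlap because the rule that named them asks for that. Lepr, the leptin receptor gene, was at 8.25, 3.72, 3.11 and 4.99 CPM against 3.05, 1.46, 1.17 and 2.00 CPM (1.52 ± 0.38, edgeR adjusted p = 0.0211; 1.28 and 0.169). The others were Arhgap6 (1.87), H2-Q1 (1.69), mt-Te (1.61), Zfp97 (1.56), Lipo3 (1.54), Dsg1c (1.43) and Wsb1 (1.32) as log2 fold changes, with GC contents from 34.8% (mt-Te) to 48.5% (H2-Q1).

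Among the lowest, Srm, which encodes spermidine synthase, was at 3.83, 2.605, 6.78 and 2.17 CPM against 10.6, 16.1, 9.79 and 12.01 CPM (-1.71 ± 0.30, edgeR adjusted p = 0.00875; -1.13 and 0.119 with the GC trend removed). Zmiz2, a transcriptional coregulator, was at 3.24, 2.605, 4.52 and 2.61 CPM against 9.38, 11.6, 7.83 and 9.67 CPM (-1.61 ± 0.24, edgeR adjusted p = 0.00625; -0.97 and 0.0949). The others were Mrps34 (-1.81), Bri3 (-1.76), Acot8 (-1.76), Tpgs1 (-1.73), Bahcc1 (-1.64), Abca7 (-1.61), Endog (-1.59) and Lrfn3 (-1.57) as log2 fold changes, with GC contents from 56.0% (Bri3) to 64.3% (Endog). Of the 24 genes that the rule took by size, which leaves out predicted names and genes whose groups overlap, Dmbt1 and Mup10 were the 2 that also passed with the GC trend removed.

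Against EPDR1, the other injected protein compared, FCN2 showed no called gene: 0 of 10033 tested (0%) in edgeR, with 1867 at an unadjusted p under 0.05 and a smallest adjusted p of 0.122. DESeq2 called 103. The fold change again followed GC content (rho -0.66), and with the GC trend removed 0 genes were called and 753 had an unadjusted p under 0.05. The EPDR1 libraries had GC gaps of -0.68, -0.78, -0.96 and -0.87, between those of vehicle and FCN2 and overlapping neither FCN2 nor, but for replicate 1, vehicle. Fcna was at 22.5 ± 3.74 CPM after EPDR1 and 13.2 ± 3.42 CPM after FCN2 (SD, n = 4 each; -0.75 ± 0.21, edgeR adjusted p = 0.137). Gas2 was at 81.5 ± 35.2 against 148 ± 28.5 CPM (0.87 ± 0.27, edgeR adjusted p = 0.158), and Nucb2 at 10.9 ± 4.10 against 5.30 ± 1.22 CPM (-1.03 ± 0.29, 0.139). Tiparp differed by 0.11 ± 0.29 (edgeR adjusted p = 0.868). A p that misses the threshold does not show that both proteins acted alike, and no gene can be called particular to FCN2 from these data.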

How the data were processed

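RNA of 8 liver libraries was analysed here, with 4 EPDR1 libraries for one further comparison. Per the labels' protocols each library was made from 800 ng of total RNA and sequenced paired-end at 50 bp. The authors deposited a table of whole-number counts, not normalized. The submitters' processing notes name GRCm38 and STAR 2.6.0c as genome and aligner. Per the file headers, exonic reads were counted by featureCounts 1.6.3 over the genes of Ensembl release 95. No option for strand, read pairs or multi-mapping reads stands in that command, so overlapping or near-identical genes are not well separated. Groups came from the titles and treatment labels.

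Counts were used as deposited. Genes kept by filterByExpr were scaled by TMM and fitted in edgeR 4.0.16 (R 4.3.3, quasi-likelihood, robust), FCN2 against vehicle, with Benjamini-Hochberg adjustment over all genes tested. SE is the log2 fold change divided by the root of F. Of 54838 genes in the file 54723 IDs were matched to symbols and 54809 to GENCODE M21, from which the GC content over all transcripts of a gene was taken. To remove a library's GC trend, a lowess curve (span 0.3) of log2 CPM (prior count 2), less the gene's mean, on GC content was entered as an offset. Promoter windows were taken from RefSeq. Library measures were compared by exact 2-sided permutation tests. The procedure was checked on simulated counts with known changes. These counts had the same dispersion for all genes, with or without a GC trend of the kind that is removed. No library differed from its group other than in depth and GC trend. The check therefore does not bear on calls that depend on single libraries.

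Genes named are the 12 highest and 12 lowest called genes (mean of at least 1 CPM, no predicted name, no overlap of groups), the 6 highest and 6 lowest that also passed with the GC trend removed, up to 4 called members of each gene list by p, and genes of the lectin pathway and a few others set in the rule. The remaining 6 of the 18 that passed both ways, and members named to account for a small count, were chosen after their values were seen. The members and lists were chosen with earlier results of these data known. Other settings were DESeq2 1.42.0, limma-voom (limma 3.58.1), DESeq2 size factors, other filters, other GC measures, a replicate block, thinning, more libraries and leaving out each library; 3 settings were added after the data were seen. A few results of the gene lists are not reported here.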

Additional observations from a re-analysis of the deposited data

Results flagged for a closer look

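Of 210 groups of 4 libraries checked over the named genes and library measures, 16 held a library far from the other 3 (by Dixon's ratio at its 95% level); chance flags about 1 in 20. Vehicle replicate 2 held 21892416 counts against 2517701 to 4038677. It was also high for Hspa5 (2918 against 1224 to 1356 CPM), Syvn1 (143.9 against 36.7 to 40.1 CPM) and Cdk2ap2 (36.8 against 16.4 to 18.99 CPM), all genes of endoplasmic reticulum folding, and low for Wsb1 (36.7 against 43.1 to 44.0 CPM). Vehicle replicate 3 was high for the acute phase genes Saa1 (3964 against 437 to 620 CPM) and Lcn2 (138 against 13.6 to 22.3 CPM), and for Acot8 (8.22 against 6.57 to 6.71 CPM). Vehicle replicate 4 was high for Dsg1c (6.34 against 3.52 to 3.92 CPM) and Endog (6.00 against 3.52 to 3.75 CPM), and its 10 most abundant genes took 22.2% of counts against 19.4% to 19.8%. FCN2 replicate 1 was high for Serpina6 (316 against 184 to 205 CPM) and Tcf24 (31.8 against 6.21 to 10.4 CPM). FCN2 replicate 2 was high for Mup9 (16 against 6.92 to 8.19 CPM) and low for Srebf1 (10.4 against 21.1 to 22.4 CPM), and FCN2 replicate 4 was low for Gabbr2 (13.9 against 20.9 to 21.2 CPM).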

How the results depend on the processing

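Of 10155 genes tested, 1409 were called, 569 higher and 840 lower. The counts stayed within 1.5 times under DESeq2 (1532), limma-voom (1729), size factors from DESeq2 (1445), genes unfiltered (1569) or filtered more strictly (1356), protein-coding nuclear genes alone (1455) and a fit with the EPDR1 libraries (1420). Thinning every library to the depth of the smallest gave 929 (322 higher). Fitting all 23 libraries gave 97 (19 higher and 78 lower, so that 19.6% were higher against 40.4%), and leaving LBP replicate 2 out of that fit gave 2314 (1079 higher and 1235 lower). Removal of the GC trend gave 21 (12 higher, 9 lower), of GC and length trends 14 (9 and 5), and, added after the data were seen, all 23 libraries with the GC trend removed 0, or 83 (53 higher, 30 lower) without LBP replicate 2. Without FCN2 replicates 2 and 4, the libraries of lowest GC gap (also added then), 319 were called, 167 higher and 152 lower. Leaving out 1 library, as counted or with the GC trend removed, gave 0 to 1449 calls (0 to 624 higher, 0 to 841 lower), as counted 213 without vehicle replicate 2, 370 without FCN2 replicate 4, 673 without vehicle replicate 1 and 861 without vehicle replicate 3. The correlation with GC content was -0.75 to -0.67 on leaving out 1 library and -0.075 for promoter GC. Between FCN2 and EPDR1, DESeq2 called 103 genes and leaving out 1 library gave 0 to 1. The causes were not tested.

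The labels give replicate numbers but no pairing, and whether same-numbered libraries belong together cannot be told from these values. Same-numbered FCN2 and vehicle libraries deviated from their groups with correlations of -0.14, 0.22, 0.05 and 0.21. Of the FCN2 libraries, 3 of 4 correlated best with their own number. With the replicate block 1393 genes were called against vehicle, and with the GC trend removed as well 60 (41 higher, 19 lower); against EPDR1 the block gave 4.

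No value of the turned sign had an adjusted p under 0.05. With the GC trend removed, with GC and length removed, with the block and GC removed, with all 23 libraries and GC removed, and with LBP replicate 2 left out of the last, in that order, Cebpa was at 0.12, 0.089, 0.12, 0.096 and 0.092, Colec11 at 0.21, 0.16, 0.19, 0.19 and 0.21, F9 at -0.050, -0.086, -0.048, -0.016 and -0.0081, Fasn at 0.066, 0.12, 0.042, 0.044 and 0.050, Ier2 at 0.070, 0.0073, 0.041, 0.041 and 0.043, and Mup3 at -0.16, -0.18, -0.17, -0.15 and -0.15. Masp1 was at -0.0081 with the GC trend removed, -0.017 with the block and GC removed, -0.00090 with all 23 libraries and GC removed, -0.00016 without LBP replicate 2 in that fit, and -0.012 with a stricter filter. Hspa5 was at 0.045 in limma-voom and 0.0080 with the block, and Saa1 at 0.19 with the block and GC removed. Without FCN2 replicates 2 and 4, Colec11 was at 0.15, Mup3 at -0.0080 and Saa1 at 0.16. On leaving out 1 library, with or without the GC trend, values ran from -0.67 to 0.20 for Cebpa, -0.17 to 0.29 for Colec11, -0.090 to 0.44 for F9, -0.66 to 0.16 for Fasn, -0.36 to 0.32 for Hspa5, -0.72 to 0.16 for Ier2, -1.18 to 0.87 for Lcn2, -0.088 to 0.085 for Masp1, -0.23 to 0.64 for Mup21, -0.24 to 0.34 for Mup3, -0.92 to 1.197 for Saa1, -0.015 to 1.22 for Sap30l and -0.85 to 0.029 for Srebf1. Differences in genes with few counts were limited by depth: at 2517701 counts, 1 CPM is under 3 reads.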
